A study of Mus musculus with 4 samples.

Results

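The mitochondrial ribosomal protein genes are the nuclear genes for the proteins of the ribosome that works inside mitochondria. They were taken here as all protein-coding genes whose symbol begins with Mrpl (large subunit) or Mrps (small subunit) followed by a number. The deposited table holds 77 such genes among its 12390 genes, and all 77 passed the filter on low values, a mean of at least 1 RPKM. RPKM is a read count scaled to the length of the transcript and to the size of the library.

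The libraries hold RNA of hematopoietic stem cells sorted from mouse bone marrow by the gate Lin-Sca-1+c-Kit+CD48-CD150+, with about 5000 sorted cells for a library. The 2 control libraries came from mice with the Ddx21 fl/fl genotype, labelled WT. The 2 knockout libraries came from Ddx21 fl/fl mice that also carry CAG-CreERT2, labelled KO, so both groups share the floxed Ddx21 alleles and differ in the recombinase. CAG is a promoter active in most cell types, so this Cre is not restricted to blood cells, and CreERT2 becomes active with tamoxifen. Libraries were made with a Smart-Seq V4 kit, which copies polyadenylated RNA from few cells. For tamoxifen dose and time, floxed exons, age and sex, nothing was given in the sources used here. This comparison asks what loss of Ddx21, an RNA helicase of the nucleolus that takes part in making cytosolic ribosomes, changes in the sorted cells. The labels do not say that replicates came from separate animals, so p-values measure the spread between these libraries, which may be technical.

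The mitochondrial ribosome descends from a bacterial one. It translates the few messages that the mitochondrial genome encodes, all for membrane subunits of the respiratory chain and ATP synthase, on ribosomal RNAs that the same genome supplies. Its proteins are made in the cytosol and imported, and many of them have no bacterial relative. Resting hematopoietic stem cells are known for low mitochondrial activity, which increases as they divide and differentiate.

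The promoters of these genes are shown first because many of these genes hold the same short sequence words near their starts. RefSeq windows (GRCm38.p6) from 250 bases before to 50 bases after the start were found for 68 of the 77 genes, 74 windows in all. Of 8 words searched on both strands, CCGGAAG, the core bound by ETS family factors such as GABP, stood in 33.8% of the 74 windows. It stood in 19.5% of the 9983 windows of all protein-coding genes tested and in 8.86% of all 32851 windows in the table. AAGATGGC, the core bound by YY1, stood in 16.2% of the member windows against 4.85% and 2.75%. A word bound by NRF1, and an overlapping form of it shifted by a base, stood in 4.05% and 8.11% of the member windows, against 2.30% and 2.36% of the windows of tested genes. For the other words the shares of member windows and of tested windows were 52.7% against 63.1% for GGGCGG, 39.2% against 38.6% for CCAAT, 9.46% against 10.4% for CACGTG and 6.76% against 6.80% for TATAAA. A match is a string of letters and not a bound site, and no test was made of these shares. The 5 stretches below lie upstream of annotated exons, 5′ to 3′ on the gene's strand, with the matched word in capitals.
Mrpl52, chr14:54426836-54426895, plus strand, ETS word on the reverse strand: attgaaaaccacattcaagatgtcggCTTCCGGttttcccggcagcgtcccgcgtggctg
Mrps22, chr9:98601680-98601739, minus strand, ETS word: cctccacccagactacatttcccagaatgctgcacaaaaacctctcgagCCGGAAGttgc
Mrps27, chr13:99344712-99344771, plus strand, ETS word on the reverse strand: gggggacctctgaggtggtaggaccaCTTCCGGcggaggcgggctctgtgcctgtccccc
Mrpl17, chr7:105811278-105811337, minus strand, ETS word: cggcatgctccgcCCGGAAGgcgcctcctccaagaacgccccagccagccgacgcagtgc
Mrpl10, chr11:97041422-97041481, plus strand, NRF1 form on the reverse strand: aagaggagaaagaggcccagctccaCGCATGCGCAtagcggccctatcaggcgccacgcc
The words begin at position -47 in Mrpl52, -11 in Mrps22, -48 in Mrps27, -237 in Mrpl17 and -135 in Mrpl10, counted from the RefSeq start. By log2 fold change in the knockout, Mrpl52, Mrps22 and Mrps27 ranked 1, 6 and 10 among the 77 genes and Mrpl17 ranked 75. Mrpl58, which also has the ETS word upstream of annotated exons but is not printed, ranked 43. Genes with the ETS word thus stood at both ends and in between. Mrpl10, named after its values were seen because it alone had an NRF1 form in a stretch free of exons, stood at 31.3 and 30.6 RPKM in control and at 31.9 and 38.5 RPKM in knockout (0.17, rescaled -0.17). The median log2 fold change was 0.21 in the 25 members with the ETS word and 0.23 in the 43 without it. It was 0.21 in the 12 members with the YY1 word and 0.22 in the 56 without.

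Some facts of the libraries bear on every value. Between 43198649 and 62853208 reads were recovered for a library, and a member held between 383 and 10239 reads in a library. Ddx21 stood at 11.0 and 12.1 RPKM in control and at 6.20 and 6.60 RPKM in knockout, which is -0.76 as a log2 fold change (SE 0.30, adjusted p = 0.158). RNA from exons outside the deleted part would remain, but the floxed exons are not given. The source of the remaining RNA was not tested. After rescaling its log2 change was -1.08 (adjusted p = 0.0965), and with voom on those reads the adjusted p was 0.0304. The sort markers Kit (50.8, 44.0, 59.2 and 64.5 RPKM) and Ly6a (83.2, 127, 133 and 165 RPKM) were present in all 4 libraries. Markers of myeloid progenitors and neutrophils, such as Elane, held 12% and 12.6% of all RPKM in control and 8.72% and 6.16% in knockout, with all 12 called lower. Bone and stroma markers such as Bglap held 0.0783% and 0.0464% in control and 1.11% and 0.309% in knockout, with 7 of 8 called higher. The stem cell list held 0.0363% and 0.0473% against 0.0573% and 0.0840%, with 3 of 10 called higher, and the megakaryocyte list 0.0644% and 0.0589% against 0.0856% and 0.149%, with 3 of 5 called higher. The erythroid list held 0.172% and 0.0849% against 0.157% and 0.0950%, a sum set largely by Car1 (634, 196, 513 and 280 RPKM). In that list Hbb-bs was called lower (-0.78) and Rhag higher (0.79). The lymphoid list held 0.215% and 0.233% against 0.160% and 0.152%, a sum set largely by Nkg7 (1228, 1324, 884 and 750 RPKM), which was called lower. The other 3 lymphoid genes tested had log2 fold changes of 0.47 (Vpreb1), 0.60 (Cd79b) and 0.81 (Cd79a), none called. These calls are on the deposited values. After rescaling limma called no gene lower and 1 gene higher in all, and voom on rescaled reads called 2 of the 8 bone and stroma genes higher and 0 genes of the other marker lists. The median log2 fold change of the myeloid list was -0.92 on the deposited and -1.28 on the rescaled values. Bone and stroma had 3.09 and 2.77, the stem cell list 0.69 and 0.37 and the megakaryocyte list 0.78 and 0.43. The SE of Elane rose from 0.21 to 1.98 and that of Bglap from 0.16 to 0.80. Fewer calls after rescaling thus do not mean that these differences were gone. The part of these markers in the results on the mitochondrial ribosomal proteins was not tested. In bulk samples, fewer cells of a type and less RNA per cell cannot be told apart. The knockout replicate 2 library stood apart: the median gene lay 0.50 above its control mean on the log2 scale there and 0.12 above it in knockout replicate 1. A trimmed-mean rescaling, which sets the typical gene level across libraries, used factors of 0.903 and 0.865 for control and 0.977 and 1.31 for knockout. It moved the median log2 fold change of all genes from 0.31 to 0.01, so the results are given on the deposited and on the rescaled values.

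The 77 genes were expressed in every library and spanned a 28.7-fold range of control RPKM. The median of their mean levels was 23.2 RPKM, with 11 genes above 50 RPKM, 56 between 10 and 50 and 10 below 10. RPKM here divides by the longest annotated transcript, so a gene with one long isoform may be listed lower than its shorter transcripts would be. Mrpl17 was divided by 7300 bases and Mrpl19 by 5000 bases.

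**Figure D1:**
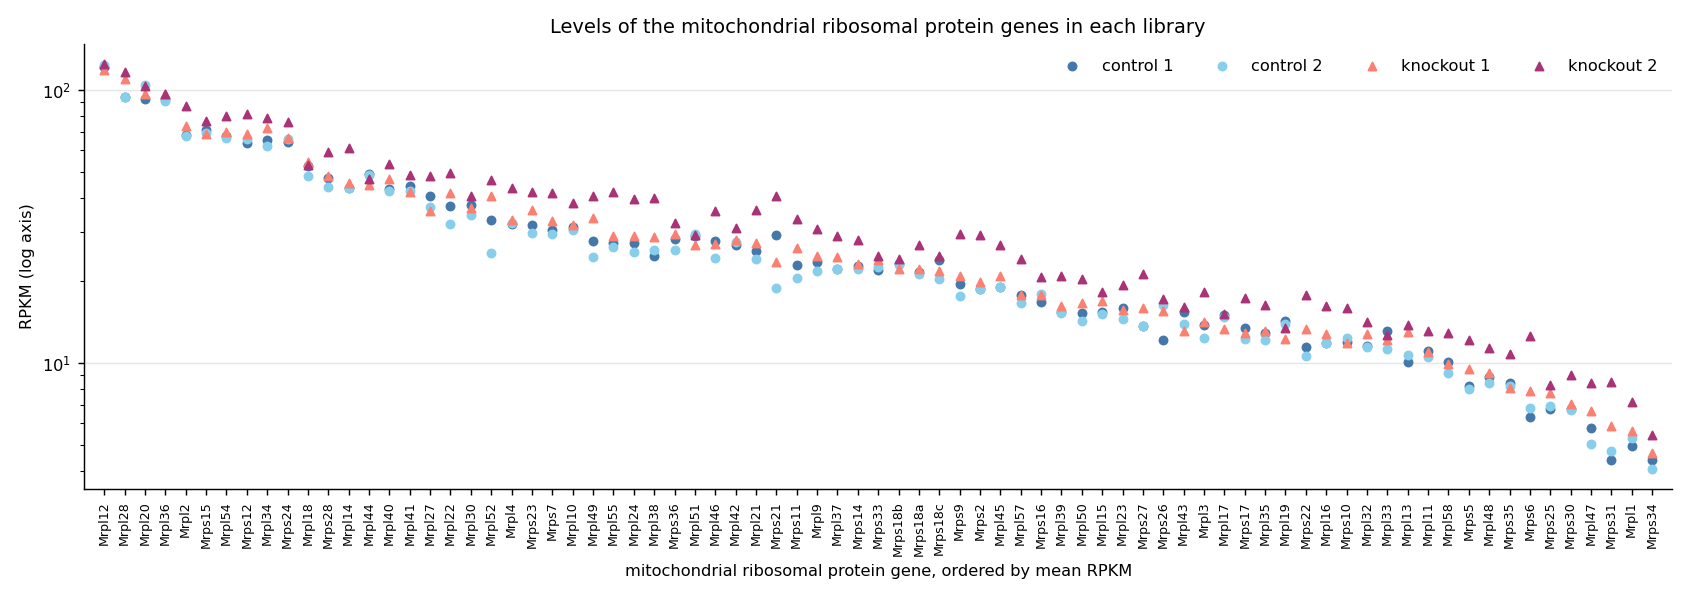
RPKM of each of the 77 mitochondrial ribosomal protein genes (log axis) in the 2 control libraries (circles) and the 2 knockout libraries (triangles), ordered by mean. Mrpl12 is highest and Mrps34 lowest. On this scale of deposited values knockout replicate 2 lies above knockout replicate 1 in 76 of 77 genes, beside 9949 of all 11742 tested. After rescaling this holds for 13 of 77, beside 5971 of all 11742.

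The highest RPKM, a scale per transcript length, was that of Mrpl12, the stalk protein that recruits translation factors and also binds the mitochondrial RNA polymerase. It stood at 121 and 123 RPKM in control and at 118 and 124 RPKM in knockout, so the groups overlapped. Mrpl28 followed at 93.9, 94.2, 109 and 116 RPKM, Mrpl20 at 92.4, 104, 96.7 and 103 RPKM and Mrpl36 at 92.4, 90.6, 96.2 and 96.8 RPKM, in the order control 1, control 2, knockout 1, knockout 2 that is used from here on. All 3 are large subunit proteins with bacterial counterparts. Mrpl2, which lines the site of peptide bond formation, stood at 68.4, 67.5, 73.6 and 86.9 RPKM, and Mrps15 at 71.4, 69.2, 68.8 and 77.0 RPKM. Mrpl54 (67.8, 66.7, 70.0 and 80.3 RPKM) and Mrps12 (63.6, 66.0, 69.1 and 81.7 RPKM), a protein of the decoding centre, completed the highest 8. At the other end Mrps34 stood at 4.42, 4.09, 4.67 and 5.43 RPKM, Mrpl1 at 4.96, 5.30, 5.64 and 7.15 RPKM and Mrps31 at 4.42, 4.73, 5.88 and 8.50 RPKM. Mrps34 shares exon positions with Mapk8ip3 and Nme3. Because no strand setting is stated, reads of overlapping genes cannot be told apart, and the values of the 32 members with such an overlap are uncertain.

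The order of the levels was shared by both groups, with a Spearman correlation of 0.984 between the control and knockout means over the 77 genes. Neighbours in this order were seldom distinct. Only 3 of the 76 neighbouring pairs were separated in all 4 libraries, and 34 were separated in the control libraries alone. Most genes in the middle of the list could therefore not be ordered beyond the spread between libraries.

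No mitochondrial ribosomal protein gene was called changed when all 4 libraries were compared by genotype alone. Using limma over 11742 genes, 0 of 77 members passed an adjusted p of 0.05 in either direction, beside 3.33% of all genes called higher and 0.860% called lower. On rescaled values 0 members were called, beside 0.00852% of all genes, all higher. At an unadjusted p under 0.05, 3 members were higher and 0 lower, against 13.8% and 2.45% of all genes. With voom on rescaled reads no member was called either. That fit called 0.435% of all genes higher and 0.187% lower, and it placed 6 members lower and 0 higher at an unadjusted p under 0.05, against 7.59% and 9.50% of all genes. On the deposited values 71 members had a log2 fold change above 0 and 6 below 0, and after rescaling 17 were above and 60 below, so the direction of the group depends on the scaling. Of all genes, 16.9% were below 0 on the deposited values and 48.1% after rescaling. Their median was 0.21 against 0.31 for all genes on the deposited values, and -0.12 against 0.01 after rescaling, and 58 of the 77 lay below the all-gene median on the first scale and 63 on the second. The distance to the all-gene median was -0.09 and -0.13, but it was -0.02 with quantile normalization, where 37 members were above 0 and 40 below.

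The members kept close together. Their log2 fold changes ran from -0.13 to 0.57 with an SD of 0.15, against 0.35 over all genes tested, many of which are measured at lower levels. Such an SD was not particular to the members. It was 0.14 in the cytosolic ribosomal protein genes, 0.11 in the nuclear complex I genes and 0.15 in the mitochondrially encoded messages. The knockout lay above the control without overlap in 53 members on the deposited values, beside 55.5% of all genes, and below it in 2, beside 7.38%. After rescaling the count was 8 members above, beside 28.4% of all genes, and 40 below, beside 26.2%. Between replicates the members' reads differed by more than counting noise, as the chi-square divided by its degrees of freedom was 7.79 in control and 11.8 in knockout. The same ratio over all genes tested was 50.4 and 157. It grows with the number of reads at a given relative spread. Members held at most 10239 reads in a library, against up to 1230707 for Elane. The ratios of members and of all genes thus do not compare their relative spread.

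**Figure D2:**
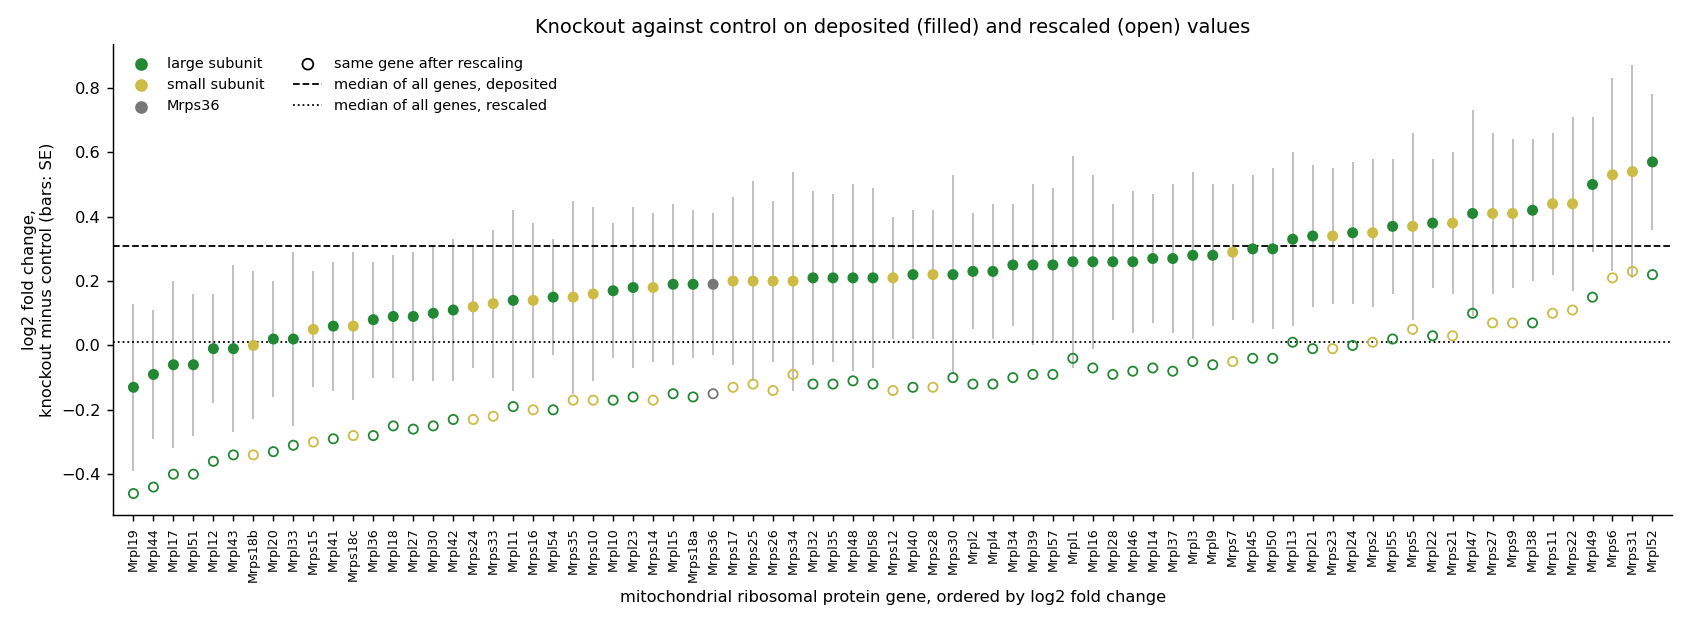
Log2 fold change of each mitochondrial ribosomal protein gene on the log2(RPKM + 1) scale, on deposited values (filled, with SE bars) and after rescaling (open), ordered by the first. Of the 77 genes, 71 lie above 0 on deposited values and 17 after rescaling. Dashed and dotted lines are the medians of all genes tested, 0.31 and 0.01.

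At the upper end stood Mrpl52 (ENSMUSG00000010406, chr14:54426909-54429756, plus strand, mm10), a large subunit protein found only in mitochondria, whose promoter stretch is shown above. It measured 33.4 and 25.3 RPKM in control and 40.8 and 46.6 RPKM in knockout, so both knockout libraries lay above both controls. The control libraries averaged 29.3 ± 5.70 RPKM and the knockout libraries 43.7 ± 4.12 RPKM (SD, n = 2). The log2 fold change was 0.57 (SE 0.21, adjusted p = 0.108), the largest of the members, and it was 0.22 after rescaling, where the groups overlapped. Mrps31, a small subunit protein, stood at 4.42 and 4.73 against 5.88 and 8.50 RPKM, which gave a log2 change of 0.54 (SE 0.33, adjusted p = 0.376) and 0.23 after rescaling. Mrps6, the counterpart of a bacterial small subunit protein, stood at 6.31 and 6.83 against 7.91 and 12.5 RPKM, which gave a log2 change of 0.53 (SE 0.30, adjusted p = 0.353) and 0.21 after rescaling. Its exons overlap those of Slc5a3. In both genes the knockout was above the control on either scale, and knockout replicate 2 was the highest library.

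Mrpl49 and Mrps11 were the other members under an unadjusted p of 0.05. Mrpl49 measured 27.8 and 24.3 RPKM in control and 33.8 and 40.9 RPKM in knockout, with 0.50 as log2 fold change (SE 0.21, adjusted p = 0.218) and 0.15 after rescaling. Mrps11, a protein of the small subunit's platform, measured 22.8 and 20.4 against 26.3 and 33.6 RPKM, with 0.44 as log2 fold change (SE 0.22, adjusted p = 0.303) and 0.10 after rescaling. Both share exon positions with another gene, Mrpl49 with Syvn1 and Mrps11 with Mrpl46, another member. Mrps22, which in humans is a gene of inherited respiratory chain deficiency, stood at 11.4 and 10.6 against 13.3 and 17.7 RPKM, which gave a log2 change of 0.44 (SE 0.27, adjusted p = 0.368) and 0.11 after rescaling. Mrps27, a protein with the pentatricopeptide repeats of RNA-binding proteins, stood at 13.6 in both control libraries and at 15.9 and 21.2 RPKM in knockout, which gave a log2 change of 0.41 (SE 0.25, adjusted p = 0.382) and 0.07 after rescaling. The 8 members whose knockout libraries stayed above both controls after rescaling were these genes other than Mrpl52, with Mrps5 and Mrpl47. Mrps5 stood at 8.19, 8.01, 9.50 and 12.1 RPKM and Mrpl47 at 5.77, 5.02, 6.64 and 8.43 RPKM, both named after their values were seen. Mrpl47 shares exon positions with Actl6a and Ndufb5, and Mrps27 with 6430562O15Rik.

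The 6 members below 0 on the deposited values all encode large subunit proteins. Mrpl19 (ENSMUSG00000030045, chr6:81957851-81965958, minus strand) measured 14.2 and 13.9 RPKM in control and 12.2 and 13.4 RPKM in knockout, which gave a log2 change of -0.13 (SE 0.26, adjusted p = 0.733) and -0.46 after rescaling (adjusted p = 0.219). Mrpl44 (ENSMUSG00000026248, chr1:79776018-79781445, plus strand), which resembles double-strand ribonucleases, measured 49.2 and 48.7 against 44.7 and 47.2 RPKM, which gave a log2 change of -0.09 (SE 0.20, adjusted p = 0.756) and -0.44 after rescaling (adjusted p = 0.287). In these 2 genes both knockout libraries lay below both controls on either scale. Mrpl19 shares exon positions with Gcfc2 and Mrpl44 with Wdfy1. Mrpl17 stood at 15.0, 14.7, 13.3 and 15.1 RPKM and overlapped no other gene's exons. Its log2 fold change was -0.06 (SE 0.26, adjusted p = 0.866) and -0.40 after rescaling, where the libraries stood at 16.6 and 17.0 against 13.6 and 11.5. Mrpl51, at 29.2, 29.5, 27.0 and 29.3 RPKM, had values of -0.06 and -0.40, and Mrpl43, at 15.3, 13.9, 13.1 and 16.0 RPKM and named after its values were seen, had -0.01 and -0.34. Mrpl12 came to -0.01 and -0.36. Mrpl51 shares exon positions with Mir3098, Mrpl43 with Twnk and Mrpl12 with Gm16755. After rescaling, Mrpl19, Mrpl17, Mrpl43, Mrpl51 and Mrpl44 were under an unadjusted p of 0.05, 5 members lower and 0 higher, against 7.51% and 8.32% of all genes.

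Leaving out 1 library gave member calls. On the rescaled values without knockout replicate 1, Mrpl44 was called lower at -0.61 (adjusted p = 0.0478), beside 7.48% of all genes. On the deposited values without knockout replicate 1, 32 members were called higher and 0 lower, beside 54.3% and 4.48% of all genes. That leaves knockout replicate 2 as the lone knockout library, assumed to vary like the controls. Control replicate 1, control replicate 2 and knockout replicate 2 were also left out one at a time. The members' median log2 fold change was then 0.24, 0.20 and 0.08, against 0.33, 0.28 and 0.12 for all genes. On rescaled values it was -0.12, -0.11 and -0.06, against 0.01, 0.01 and 0.00.

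The members were also read by subunit and origin, and the differences between these classes were not tested. The 50 large subunit genes, with Mrps18a and Mrps30 counted among them by the place of their proteins, had a median log2 fold change of 0.22 and ran from -0.13 to 0.57. The 26 small subunit genes had a median of 0.21 and ran from 0.00 to 0.54. After rescaling both medians were -0.12. The 44 genes with a bacterial counterpart had a median of 0.21 (rescaled -0.12) and the 33 without one 0.22 (rescaled -0.10). The 32 members whose exons overlap another gene had a median of 0.20 and the 45 others 0.22, with -0.12 for both after rescaling.

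Members with a known special place or task were also read singly. Mrpl3, near the peptidyl transferase centre, stood at 13.7, 12.3, 14.1 and 18.2 RPKM, with a log2 fold change of 0.28 (rescaled -0.05). Mrpl45, which holds the ribosome to the inner membrane beside the tunnel exit, stood at 19.0, 18.9, 20.7 and 27.0 RPKM, with 0.30 (rescaled -0.04). Mrpl58, a hydrolase that frees peptides from stalled ribosomes, stood at 10.1, 9.16, 9.92 and 12.8 RPKM, with 0.21 (rescaled -0.12). The first 2 had both knockout libraries above both controls on the deposited values, and Mrpl58 did not. Mrpl41, also described as a partner of p53, stood at 44.5, 42.6, 42.3 and 48.8 RPKM, with 0.06 (rescaled -0.29). Mrps30, once named as a cell death protein, stood at 6.77, 6.69, 7.07 and 9.03 RPKM, with 0.22 (rescaled -0.10). Mrps16, a small subunit protein, stood at 16.7, 17.9, 17.7 and 20.6 RPKM, with 0.14 (rescaled -0.20).

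The 3 Mrps18 paralogs occupy different places in the ribosome and had close levels. Mrps18a stood at 21.5, 21.2, 22.1 and 27.1 RPKM, Mrps18b at 22.9, 23.0, 22.1 and 24.0 RPKM and Mrps18c at 23.8, 20.3, 21.6 and 24.5 RPKM. The log2 fold changes were 0.19, 0.00 and 0.06, and -0.16, -0.34 and -0.28 after rescaling. None of the 3 was called. Mrps36, which despite its name is a subunit of the alpha-ketoglutarate dehydrogenase complex, stood at 28.3, 25.9, 29.6 and 32.5 RPKM, with 0.19 and -0.15.

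The 2 knockout libraries gave different amounts of this shift. Knockout replicate 2 exceeded both controls in 72 of the 77 genes on the deposited values, beside 81.3% of all genes, and knockout replicate 1 in 53, beside 58.9%. The median member lay 0.08 above its control mean in knockout replicate 1 and 0.35 above it in knockout replicate 2, and at -0.06 and -0.17 after rescaling. Without knockout replicate 2 the members' median log2 fold change was 0.08, against 0.12 for all genes. The members' deviations in the 2 libraries had a Pearson correlation of 0.69 across the 77 genes, beside 0.61 across all genes, and both share the control mean they are measured from. As a share of all RPKM, the 77 genes together held 0.383% and 0.377% in control and 0.410% and 0.529% in knockout. The mean share was 0.380% ± 0.00474 in control and 0.469% ± 0.0841 in knockout (SD, n = 2), and no exact permutation test of 2 against 2 libraries can pass 0.05.

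Level and length were compared because both go with the fold change over all genes. The members had a median level of 23.2 RPKM, against 6.48 for all genes, and a median transcript length of 1884 bases, against 2840. Among genes above 50 RPKM the median log2 fold change was -0.00, against 0.12 in the 11 members there. It was 0.29 against 0.22 in the 56 members between 10 and 50 RPKM, and 0.35 against 0.24 in the 10 members below 10 RPKM. Of 5 equal classes of transcript length, the shortest (10 to 1256 bases) had a median of 0.05, against 0.22 in its 26 members. In the other 4 classes the gene medians ran from 0.32 to 0.35 and the members' from 0.20 to 0.25. The members thus lay above the other genes in the highest band of level and in the shortest class, and below them elsewhere. After rescaling the medians in the highest band were -0.36 for all genes and -0.23 for members, and in the shortest class -0.24 and -0.13. Within the members the log2 fold change had a Pearson correlation of -0.07 with log2 length and of -0.22 with log2 level (77 genes), beside 0.23 and -0.25 over all genes.

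**Figure D3:**
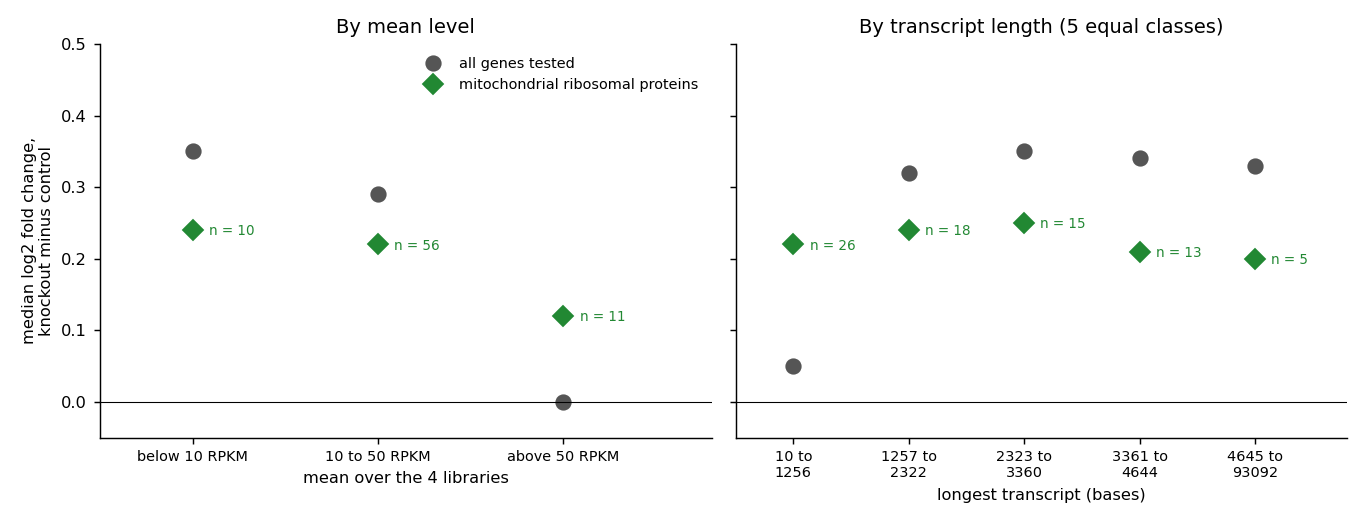
Median log2 fold change on deposited values of all genes tested (circles) and of the mitochondrial ribosomal protein genes (diamonds, with their number), by mean RPKM on the left and by 5 equal classes of transcript length on the right. The members lie above all genes among genes over 50 RPKM (0.12 against -0.00) and among the shortest class (0.22 against 0.05), and below them elsewhere. After rescaling the values in both are below 0, with the members still above.

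Set beside other ribosomal and respiratory genes, the group had the highest median of the 4 lists on the deposited and on the rescaled values. The 77 cytosolic ribosomal protein genes, which include the same number of genes by coincidence, had a median log2 fold change of -0.07 (rescaled -0.43), with 1 called higher, Rps27l. The 36 nuclear genes for complex I of the respiratory chain had a median of 0.11 (rescaled -0.24) and none called. The 13 messages encoded by the mitochondrial genome, the templates of the mitochondrial ribosome, had a median of -0.21 (rescaled -0.56) and none called. In knockout replicate 2 the library medians were 0.35 for the mitochondrial ribosomal proteins, 0.16 for complex I, -0.22 for the cytosolic ribosomal proteins and -0.31 for the mitochondrial messages. In knockout replicate 1 they were 0.08, 0.05, 0.05 and -0.07. The lists differ in level and length, with median levels of 23.2 RPKM in the mitochondrial ribosomal proteins, 81.6 in complex I, 688 in the cytosolic ribosomal proteins and 306 in the mitochondrial messages, and the differences between lists were not tested.

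**Figure D4:**
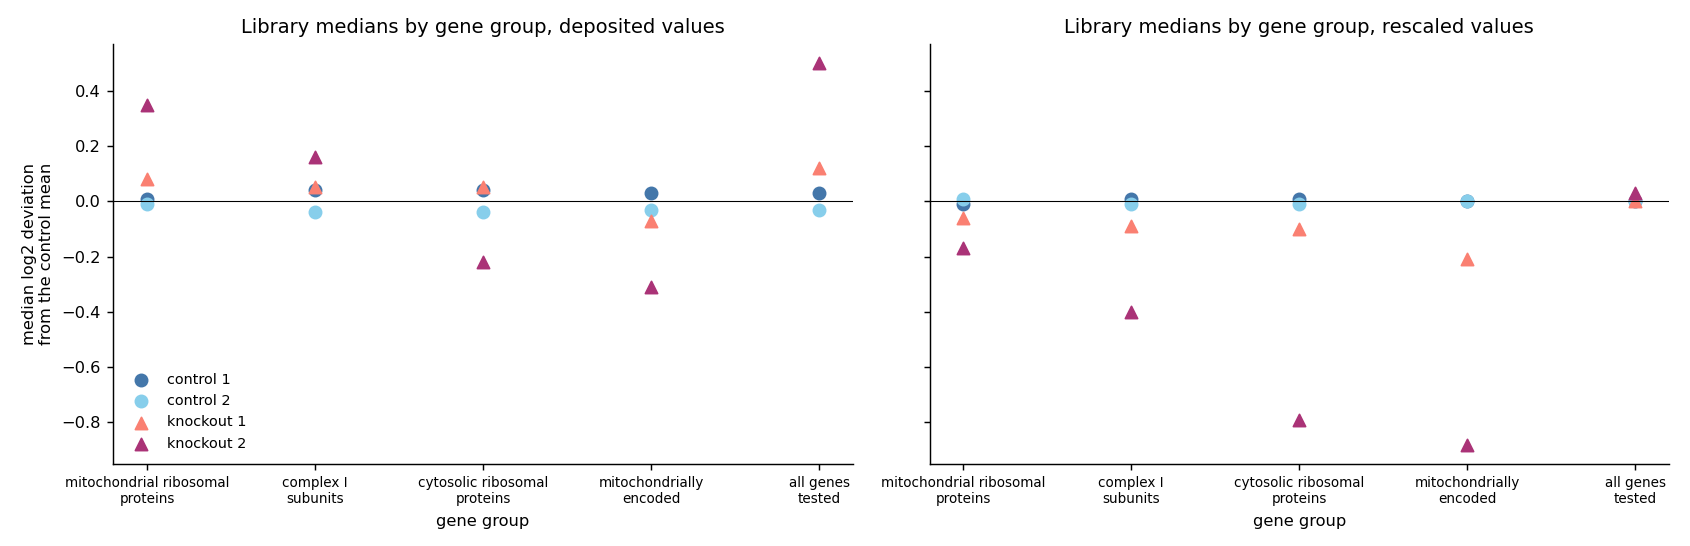
Median log2 deviation from the control mean in each library (circles control, triangles knockout) for 5 gene groups, on deposited values (left) and after rescaling (right). Knockout replicate 2 spreads the 4 lists from 0.35 in the mitochondrial ribosomal proteins to -0.31 in the mitochondrial messages on the left, and rescaling moves all 4 lists below 0 in both knockout libraries.

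Many of these genes share their start region with a neighbour on the other strand. A head-to-head protein-coding neighbour whose start lay within 1000 bases was found for 33 of the 77 members (42.9%), against 1794 of 9839 protein-coding genes tested (18.2%). In 15 of the 33 pairs the annotated genes overlap at their starts. Mrps11 and Mrpl46 form such a pair with each other and count from both sides. The neighbour was tested in 27 pairs, and none of these neighbours was called. Their median log2 fold change was 0.38 (rescaled 0.10), and the Pearson correlation between the 2 genes of a pair was -0.06 over 27 pairs. Mrpl49 (0.50) starts 59 bases from Fau (-0.14), the gene of a cytosolic ribosomal protein, which stood at 1347, 1251, 1300 and 1066 RPKM. Mrpl2 (0.23) starts 207 bases from Klc4 (0.83), a kinesin light chain gene at 3.41, 3.86, 6.07 and 8.57 RPKM. Mrps27 (0.41) starts 81 bases from Ptcd2 (0.37), a mitochondrial RNA-binding protein gene at 26.6, 27.5, 31.6 and 39.4 RPKM, and the stretch printed for Mrps27 lies in the gap between them. Those 3 pairs were picked after their values were seen.

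**Figure D5:**
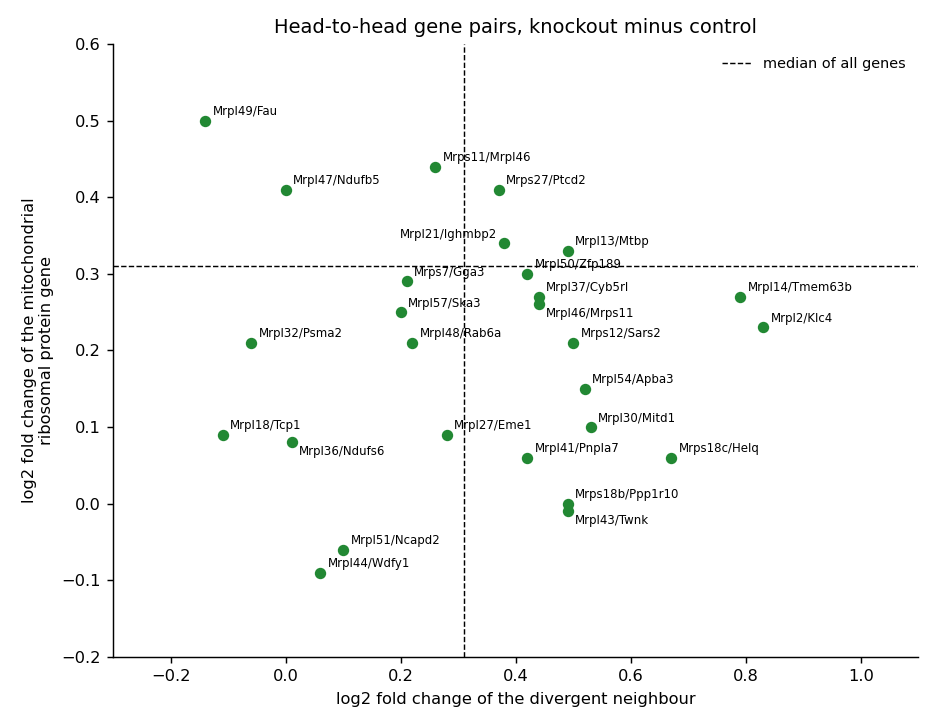
Log2 fold change on deposited values of 27 mitochondrial ribosomal protein genes (vertical axis) against that of the head-to-head neighbour (horizontal axis), each point labelled member/neighbour. Dashed lines mark the median of all genes, 0.31. The points show no common direction (r = -0.06), and rescaling lowers the neighbours' median from 0.38 to 0.10.

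Other genes of mitochondrial translation were read from lists of known genes. The 5 ribosomal proteins of the mitochondrion with other symbols gave values inside the members' range, with 0 called and a median of 0.20 (rescaled -0.13). They were Dap3 (0.30), a GTP-binding protein of the small subunit, Aurkaip1 (0.22), Ptcd3 (0.20), Chchd1 (0.17) and Gadd45gip1 (0.17). Of 29 genes for assembly of the mitochondrial ribosome and maturation of its RNA, 0 were called. Their median was 0.36 (rescaled 0.05), against 0.31 (rescaled 0.01) for all genes. At an unadjusted p under 0.05 in limma, 3 of them were higher, beside 13.8% of all genes. Ngrn, which binds the large ribosomal RNA, stood at 16.9, 14.9, 19.4 and 26.1 RPKM (0.48, adjusted p = 0.30). Nsun4, a methyltransferase for ribosomal RNA, stood at 4.09, 3.13, 5.13 and 7.55 RPKM (0.66, adjusted p = 0.306). After rescaling they came to 0.14 and 0.36.

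None of the 14 translation factors tested of 15 listed was called either (median 0.32, rescaled 0.04). The smallest p-values belonged to Mrrf, the ribosome recycling factor (0.50, adjusted p = 0.362), and Oxa1l, the insertase that takes up new chains (0.40, adjusted p = 0.363). Of the 10 genes for mitochondrial transcription and DNA upkeep 0 were called (median 0.40, rescaled 0.11), with Tefm, the elongation factor, at 0.70 (adjusted p = 0.135) and Tfam, which packs mitochondrial DNA, at 0.51 (adjusted p = 0.331). Of 17 mitochondrial tRNA synthetases 0 were called (median 0.37, rescaled 0.04), with Rars2 at 0.50 (adjusted p = 0.268) and Sars2 at 0.50 (adjusted p = 0.339). Among 8 tested regulators of mitochondrial biogenesis, which include factors for the promoter words above, 1 was called higher. That was Mycn at 12.8, 28.5, 23.0 and 48.3 RPKM, with 0.77 (adjusted p = 0.0196). Its groups overlap, and it was not called after rescaling (0.43, adjusted p = 0.597). Gabpb1, a subunit of GABP, came to 0.51 (adjusted p = 0.314) and to 0.18 after rescaling. Other listed factors for the promoter words, given here beyond the naming rule, were not called. Gabpa, also a subunit of GABP, came to 0.13 (rescaled -0.17), Nrf1 to 0.30 (rescaled -0.04) and Yy1 to 0.36 (rescaled 0.08).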

How the data were processed

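The deposited table gives 1 value per gene and library. The unit was identified as RPKM from the values: the deposited values, multiplied by the longest GENCODE M21 transcript length, were whole reads (tolerance 0.1) for 99.4% of values in each library. A gene without reads is listed at 0.001. Per the submitters' processing notes the genome was mm10. Aligner, counter and strand setting: not given in the sources used here. Values were taken to log2(RPKM + 1). Genes averaging 1 RPKM or more, 11742 in number, entered a two-sided limma fit (version 3.58.1, R 4.3.3, trend of variance with level), with Benjamini-Hochberg adjustment over all of them and a threshold of 0.05. On this scale a fold change is knockout minus control and comes out too small for low genes. The fit on deposited values has 2 residual degrees of freedom and infinite prior degrees of freedom. Every gene there took the spread of the trend, and a noisy gene's p is too small. In the limma fit on rescaled values the prior was finite, as Mrpl19 at -0.46 with an SE of 0.13 had an unadjusted p = 0.0131. Calls on the 2 scales thus rest on different degrees of freedom. Rescaling used TMM-type factors coded in R, and promoter and neighbour tables were made in Python 3.11.15. No count test was possible on RPKM as deposited, so voom on the recovered reads was an alternative. Lists of genes, markers and members were chosen with earlier results of these data known. Named genes were the 8 highest and 3 lowest in level, the 5 highest and 5 lowest fold changes, members chosen by role, and, of other lists, called genes and the 2 smallest p. Other alternatives were quantile normalization, another pseudocount, other filters, no trend, a replicate block and leaving out each library.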

Additional observations from a re-analysis of the deposited data

How the results depend on the processing

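Again 0 members were called in either direction with a pseudocount of 0.1, no filter, a minimum mean of 5 RPKM or no trend. In that order those fits called 402, 439, 235 and 373 genes higher in all, and 107, 114, 93 and 52 lower. Voom also called 0 members, beside 51 genes higher and 22 lower in all. The members without exon overlap gave 0 calls too. Rescaling called 1 gene higher in all and quantile normalization 0 genes, so 0 members called there says nothing about the members. Leaving out each library gave 0 to 32 members called higher, with 32 without knockout replicate 1, and 0 lower. Replicate numbers did not show pairing (correlation of the replicate differences 0.067 over 11742 genes, -0.278 over the 77 members). The replicate block gave 0 member calls, with 175 genes higher and 64 lower in all. On rescaled values the block gave 1 lower, Mrpl19 (-0.46, adjusted p = 0.0424), with 525 higher and 675 lower in all, and leaving out libraries, chosen after seeing the data, gave 0 to 1 lower. The members' median of 0.21 became -0.12 with rescaling, voom and the rescaled block, -0.01 with quantile normalization, 0.08 to 0.35 without 1 library, and -0.17, -0.12, -0.11 and -0.06 without 1 library on rescaled values. The distance to the all-gene median, -0.09, was -0.02 with quantile normalization, -0.14 with a pseudocount of 0.1, -0.15 with voom, -0.15 to -0.04 without 1 library and -0.20 to -0.06 on rescaled values. Rescaling changed the sign of 54 of 77 members. Among the members named by the rule, sign changes in which both values exceeded their SE were Mrps12 with voom (-0.13) and, on rescaled values without knockout replicate 1, Mrpl2 (-0.21), Mrpl28 (-0.26) and Mrps12 (-0.23). The cause was not tested. Each member had at least 383 reads in each library, and the 2 libraries per group limit the precision more than the depth.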
